A study of Homo sapiens with 2 samples.

Results

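Circadian clock genes were examined in CL1-0, an established cell line of human lung adenocarcinoma, given an antibody to FSTL1, a secreted glycoprotein, for 6 h or for 0 h. The genes were PER1, PER2, PER3, CRY1, CRY2, CLOCK, NR1D1, NR1D2, DBP and BHLHE40, and their probe sets were those whose platform annotation names 1 of these genes and no other. This gave 18 of the 54675 probe sets on the array, for 8 of the 10 genes. The 4 probe sets that name PER1 also name the microRNA gene MIR6883, and the 3 that name NR1D1 also name THRA, so neither PER1 nor NR1D1 has a value here.

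The study has 2 Affymetrix arrays, 1 of cells 6 h after the antibody was given and 1 of cells at 0 h. Per the labels, the cells of both arrays were stably transduced and selected with puromycin, with no vector named, and total RNA was labelled as biotinylated cRNA. No array of untreated or control-antibody cells at 6 h was used here, so time in culture, handling of the medium and the antibody cannot be told apart. With 1 array per time there is no spread between replicates, and none of the differences was tested or repeated.

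The mammalian clock is a loop of transcription and repression that cells outside the brain also carry. CLOCK pairs with BMAL1 and binds E-box elements, which switches on the PER and CRY genes, whose proteins return to the nucleus and repress that pair. NR1D2 (REV-ERB beta) and its relative NR1D1 repress BMAL1, DBP drives genes through D-box elements, and BHLHE40 (DEC1) binds E-boxes as a repressor. Serum, a change of medium, glucocorticoids and cyclic AMP are known to reset the loop in cultured cells, with PER1 and PER2 among the early responders.

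Promoters of the genes with the largest differences in each direction on their brightest probe set (CRY2, CLOCK, BHLHE40) and of NR1D2 and PER2, which hold more than 1 clock element, are shown so that the elements can be read beside the values. The sequences are from RefSeq, build GRCh38.p14, and run from 250 bases before to 50 bases after an annotated start. Where RefSeq gives a gene several starts, the window with more clock elements is printed. Capitals mark the E-box, which has the letters CACGTG, the E-prime-box, which has the letters CACGTT and is read as AACGTG on the opposite strand, and the D-box, which has the letters TTANGTAA with any base at N and is read as TTACNTAA on the opposite strand, as in NR1D2.
CRY2, chr11:45847225-45847524, plus strand: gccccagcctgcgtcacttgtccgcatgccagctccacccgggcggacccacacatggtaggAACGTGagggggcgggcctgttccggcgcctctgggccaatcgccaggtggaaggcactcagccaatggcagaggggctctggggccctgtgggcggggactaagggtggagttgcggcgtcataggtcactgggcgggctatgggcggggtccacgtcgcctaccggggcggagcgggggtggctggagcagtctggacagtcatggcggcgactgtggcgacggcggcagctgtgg
CLOCK, chr4:55545883-55546182, minus strand: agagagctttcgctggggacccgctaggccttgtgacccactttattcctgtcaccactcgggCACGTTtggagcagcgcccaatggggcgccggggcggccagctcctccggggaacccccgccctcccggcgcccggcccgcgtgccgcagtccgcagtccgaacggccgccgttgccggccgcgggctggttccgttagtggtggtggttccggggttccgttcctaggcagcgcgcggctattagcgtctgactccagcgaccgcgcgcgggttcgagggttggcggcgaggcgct
BHLHE40, chr3:4979187-4979486, plus strand: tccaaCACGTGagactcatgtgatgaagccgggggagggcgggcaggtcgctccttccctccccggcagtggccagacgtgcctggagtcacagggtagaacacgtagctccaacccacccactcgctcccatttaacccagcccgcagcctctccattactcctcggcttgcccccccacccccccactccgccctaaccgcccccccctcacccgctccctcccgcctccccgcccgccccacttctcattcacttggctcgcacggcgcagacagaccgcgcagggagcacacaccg
NR1D2, chr3:23945871-23946170, plus strand: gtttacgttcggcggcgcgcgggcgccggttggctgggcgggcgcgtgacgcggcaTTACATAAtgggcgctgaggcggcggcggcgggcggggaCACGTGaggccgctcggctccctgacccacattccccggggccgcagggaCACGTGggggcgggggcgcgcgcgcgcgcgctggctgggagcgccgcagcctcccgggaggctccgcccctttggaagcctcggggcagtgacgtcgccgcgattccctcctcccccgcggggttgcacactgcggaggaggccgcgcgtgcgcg
PER2, chr2:238288561-238288860, minus strand: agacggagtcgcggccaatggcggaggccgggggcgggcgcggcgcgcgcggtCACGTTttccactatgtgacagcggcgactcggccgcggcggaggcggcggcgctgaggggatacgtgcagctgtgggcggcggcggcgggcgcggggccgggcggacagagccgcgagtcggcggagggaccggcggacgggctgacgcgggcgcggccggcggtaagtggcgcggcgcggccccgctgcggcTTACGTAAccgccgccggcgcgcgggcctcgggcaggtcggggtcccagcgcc

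All 10 genes were found in the promoter table, in 14 windows. On either strand, CACGTG lay in windows of 3 of the genes (BHLHE40, NR1D2 and PER1), while 7.26% of all 35116 promoter windows held it. CACGTT lay in windows of 5 genes (PER2, CLOCK, CRY2, CRY1 and NR1D1), against 5.34% of all windows. TTANGTAA lay in windows of 3 genes (PER3, PER2 and NR1D2), against 2.18% of all windows. AGGTCA, the core letters of many nuclear receptor sites, lay in windows of 2 genes (CRY2 and PER1), against 13.8% of all windows, and the cyclic AMP element TGACGTCA lay in none, against 1.85%. The letters of these elements did not overlap each other in the printed windows. Genes can have several windows, so counts of genes and shares of windows are not the same measure. A match is a run of letters and not a shown binding site, and no match says only that the letters are not in that window.

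The clock genes with a value here differed by less than 1.5-fold between the arrays. CRY2 had the largest difference of any of them and was lower at 6 h, CLOCK and BHLHE40 were higher by smaller amounts, PER2 was close to its 0 h value, and the probe sets of PER3 disagreed. Values below are the deposited intensity on a linear scale, and differences are log2 of 6 h over 0 h, so that a positive one means higher at 6 h. Intensities under 45.4, the 50th percentile of all values of both arrays, were set to that floor before the difference was taken, and probe sets above the floor on 1 array or both were taken as measured. The floor is an assumed background. Of the 18 clock probe sets 15 were measured and 3 lay below it on both arrays.

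**Figure D1:**
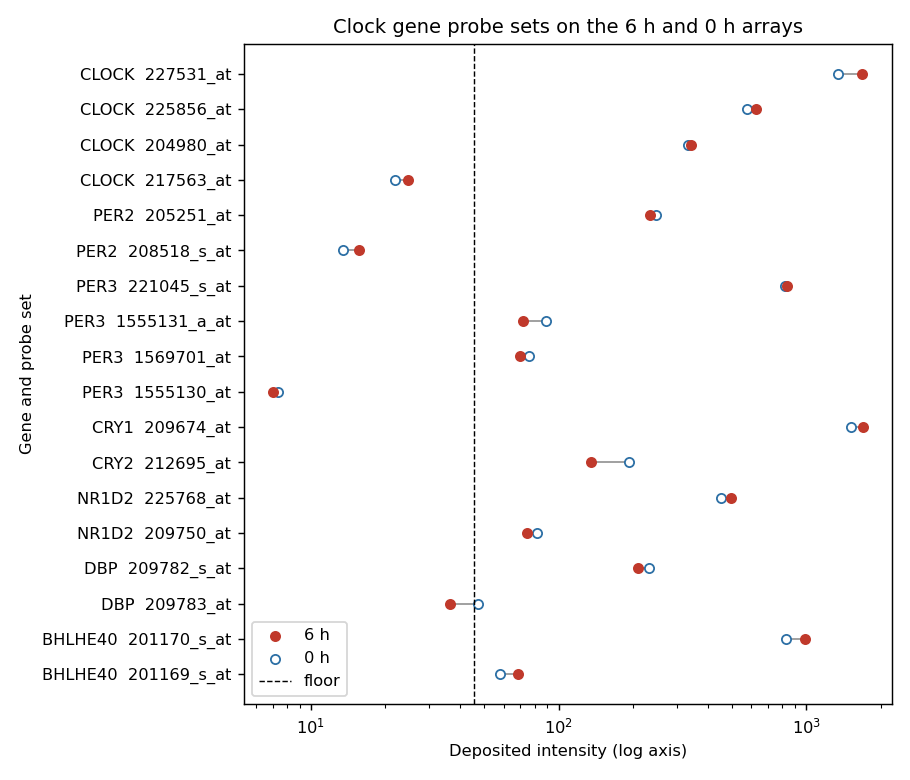
Deposited intensity (log axis) of each of the 18 clock probe sets at 6 h (filled) and 0 h (open), with the floor of 45.4 as a dashed line. The points of a pair nearly coincide for most probe sets, with the widest gap among measured sets for CRY2 (135 at 6 h, 193 at 0 h). Probe sets differ in affinity, so levels are to be compared within a line only.

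The activator CLOCK had an intensity of 1674 at 6 h, against 1344 at 0 h, on probe set 227531_at, a log2 difference of 0.32 (1.25-fold). Its probe set 225856_at had 626 at 6 h and 576 at 0 h, a difference of 0.12. Its dimmer set 204980_at had 344 at 6 h and 333 at 0 h, a difference of 0.05. All 3 measured sets of CLOCK were thus higher at 6 h, but by unequal amounts, and the remaining set, 217563_at, was below the floor with 24.6 at 6 h and 21.9 at 0 h.

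Among the repressors of that pair, PER2, which is both a core component and a direct target of resetting signals, had 235 at 6 h and 247 at 0 h on 205251_at, a difference of -0.07. Its other set, 208518_s_at, lay below the floor with 15.7 at 6 h and 13.4 at 0 h. PER3, a family member known to contribute to period and tissue rhythm more than to the core loop, had 838 at 6 h and 823 at 0 h on its brightest set, 221045_s_at, a difference of 0.02. Its dimmer sets were lower at 6 h. Probe set 1555131_a_at had 71.8 at 6 h and 89.0 at 0 h, a difference of -0.31. Probe set 1569701_at had 70.2 at 6 h and 76.3 at 0 h, a difference of -0.12, and 1555130_at was below the floor with 7.06 at 6 h and 7.36 at 0 h. No single direction therefore describes PER3.

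The cryptochromes, which bind and inhibit the CLOCK and BMAL1 pair, went opposite ways. CRY2 had 135 at 6 h, against 193 at 0 h, on its only probe set, 212695_at, which is a log2 difference of -0.52 (1.44-fold lower). CRY1 had 1695 at 6 h, against 1511 at 0 h, on its only probe set, 209674_at, a difference of 0.17. Neither gene has a second probe set against which its value could be checked. Over all 28239 measured probe sets of the array, 0.428% were lower by at least as much as CRY2. When the measured sets were split into 5 groups of equal size by brightness, CRY2 lay in the group numbered 3 from the dimmest, and 0.319% of the sets there were lower by at least as much. CRY2 has the largest difference of the 15 measured clock sets, so these shares describe a picked extreme and are not a test. For CRY1 the share of measured sets higher by at least as much was 22.1%, and 15.4% in its own brightness group.

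NR1D2, the nuclear receptor of the stabilising loop, had 497 at 6 h and 452 at 0 h on 225768_at, a difference of 0.14, but 74.8 at 6 h and 82.2 at 0 h on 209750_at, a difference of -0.14. The 2 probe sets disagreed by more than either differed between the arrays, so no direction is given. DBP, an output transcription factor whose transcript follows the E-box loop closely in many tissues, had 209 at 6 h and 233 at 0 h on 209782_s_at, a difference of -0.15. On 209783_at it had 36.4 at 6 h, below the floor, against 47.1 at 0 h, just above it, so this set gives only a bound, at least 1.04-fold lower at 6 h. That set counted as measured only through the 0 h array, which fixes its side, so DBP has 1 informative set.

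BHLHE40, a repressor that also answers to serum and hypoxia, had 991 at 6 h and 832 at 0 h on 201170_s_at, a difference of 0.25 (1.19-fold). Its second set, 201169_s_at, had 68.4 at 6 h and 57.9 at 0 h, a difference of 0.24. The sets lie at very different intensities and their differences were nearly equal. Of the measured probe sets of the array, 12.1% were higher by at least as much as 201170_s_at, and 6.99% in its own brightness group. For the bright set of CLOCK, which had the largest rise of the clock sets, these shares were 7.54% and 3.58%. For its sets 225856_at and 204980_at the shares over the array were 29.3% and 43.6%.

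As a measure of error, the log2 differences of different probe sets of 1 gene scattered with an SD of 0.16, pooled over 6122 genes with several measured sets. Such sets are not replicates, and this scatter holds neither the spread between cultures nor that between arrays. Of the 15 measured clock sets, those beyond this SD in size were CRY2, the bright set of CLOCK, both sets of BHLHE40, 1 set of PER3 and the set of CRY1, the last by 0.01 or less. Over all measured sets of the array the log2 differences had an SD of 0.20, and 22.1% were higher by at least as much as CRY1. Passing 0.16 is thus common on these arrays and does not set these clock sets apart. Of the 5 clock genes with several measured sets, CLOCK and BHLHE40 had all of them on 1 side, PER3 and NR1D2 did not, and DBP had only 1 set above the floor on both arrays. The same was counted for the related genes described below. All sets lay on 1 side for 2 of 3 loop genes and 5 of 13 regulators. They did so for 4 of 7 outputs and 5 of 11 acute inputs.

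No clock probe set was 1.5-fold higher or 1.5-fold lower at 6 h (0 of 15 in each direction), where 0.804% of all measured probe sets were at least 1.5-fold higher and 0.198% at least 1.5-fold lower. With so few members, a count of 0 is what those shares give as well. At the smaller size of 1.2-fold, chosen after the values were seen, 1 of the 15 was higher (the bright set of CLOCK), against 11.1% of all measured sets. At the same size 2 were lower (CRY2 and a PER3 set), against 5.81% of all. Of the 15, 8 were higher and 7 lower by any amount, a share of 53.3% higher, against 54.9% over all measured sets. The lower ones include DBP 209783_at, which was measured only through the 0 h array, so its side was fixed. The median difference of the 15 was 0.02, as it was over all measured sets, and the median absolute difference was 0.14, against 0.12 over all.

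**Figure D2:**
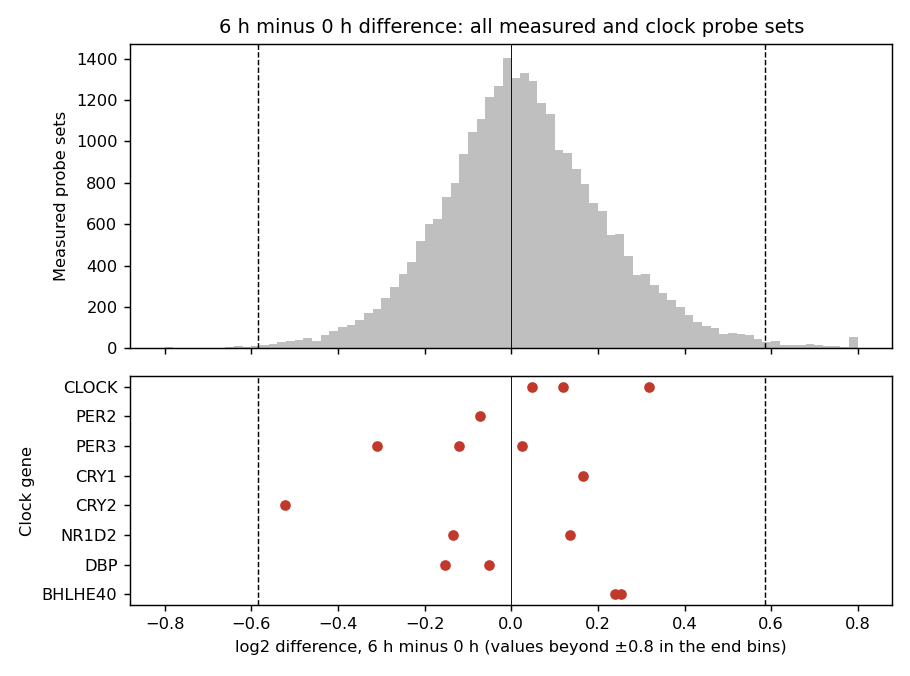
Number of measured probe sets by log2 difference, 6 h minus 0 h (upper panel), and the 15 measured clock probe sets by gene on the same axis (lower panel), with 1.5-fold in each direction as dashed lines. Every clock set lies inside the dashed lines, from CRY2 at -0.52 to CLOCK at 0.32.

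With each gene represented by its brightest measured probe set, 5 of the 8 genes (62.5%) were higher at 6 h and 3 lower, against 54.3% of all measured genes higher. In order from the lowest these were CRY2 (-0.52), DBP (-0.15), PER2 (-0.07), PER3 (0.02), NR1D2 (0.14), CRY1 (0.17), BHLHE40 (0.25) and CLOCK (0.32). Apart from the step between CRY2 and DBP, neighbours in this order lie closer together than the SD between probe sets of a gene. The median absolute difference over the 8 genes was 0.16, against 0.11 over all measured genes. The median over the 8 genes was 0.08, against 0.02 over all 12669 measured genes. It was -0.04 when each gene was given the median of its measured probe sets, so its sign is not settled. It was -0.05 when the _x_at and _s_at probe sets (which may match several transcripts) were left out. That last value is the difference of DBP on 209783_at, whose side the filter fixed, so it does not bear on the sign.

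Other genes of the loop were set beside them. Of 11 further loop genes with a probe set of their own 6 were measured, 5 higher and 1 lower, with a median of 0.10, where 54.3% of all measured genes were higher. None was 1.5-fold higher or lower, against 0.75% and 0.182% of all measured genes. TEF, which like DBP is a D-box activator of the PAR bZIP family, was the lower one, with 178 at 6 h and 226 at 0 h, a difference of -0.34. BMAL1, the partner of CLOCK, had 104 at 6 h and 95.7 at 0 h, a difference of 0.13. NPAS2, which can stand in for CLOCK, had 66.0 at 6 h and 55.6 at 0 h, a difference of 0.25, with its other measured set at 0.09. BMAL2 was at 0.25 on its brightest set but had a set at -0.21. RORA, RORB, HLF, BHLHE41 and CIART were below the floor on both arrays. By brightest set, the difference of BMAL1 was within the scatter between probe sets of a gene, and those of TEF, NPAS2 and BMAL2 were beyond it. The differences of all measured genes had an SD of 0.19, so lying beyond that scatter is common. NPAS2 and BMAL2 also lay near the floor, and the sets of BMAL2 were opposite in sign, so no direction is given for BMAL2.

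Kinases, ubiquitin ligase subunits and cofactors that act on the clock proteins numbered 20, of which 18 were measured, 14 higher (77.8%, against 54.3% of all measured genes) and 4 lower, with a median of 0.08. None was 1.5-fold higher or lower, against 0.75% and 0.182% of all measured genes. SIRT1, a deacetylase that binds CLOCK, had 847 at 6 h and 679 at 0 h, a difference of 0.32. GSK3B, a kinase of several clock proteins, had 1053 at 6 h and 845 at 0 h, a difference of 0.32, with its 3 sets between 0.07 and 0.32. USP2, a deubiquitinase, had 68.8 at 6 h and 57.0 at 0 h, a difference of 0.27. The brightest set of GSK3A was at -0.33 and its other set at 0.33, so that gene shows no direction. The casein kinases that phosphorylate PER proteins differed little, with CSNK1D at -0.10 and CSNK1E at 0.03 on their brightest sets, although the other set of CSNK1E was at -0.35. CSNK1D and CSNK1E were named after their values were seen. PRKAA2, also named afterwards and counted among the lower genes, had 33.1 at 6 h and 46.9 at 0 h. It was above the floor only at 0 h, so its side was fixed.

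Among 14 genes described as clock-controlled outputs, 11 were measured, 6 higher (54.5%, against 54.3% of all measured genes) and 5 lower, with a median of 0.07. No output was 1.5-fold higher or lower, against 0.75% and 0.182% of all measured genes. VEGFA, the endothelial growth factor, had 1637 at 6 h and 1153 at 0 h, a difference of 0.51, and all 4 of its sets were higher (0.13 to 0.51). KLF15, a metabolic regulator, had 71.9 at 6 h and 95.7 at 0 h, a difference of -0.41, with its other set at -0.24. The nuclear receptor PPARA had 334 at 6 h and 262 at 0 h on its brightest set, a difference of 0.35, and its 6 measured sets ran from -0.11 to 0.35. NAMPT, the rate-limiting enzyme of NAD salvage, was at 0.33 on its brightest set, and its 4 sets ran from -0.19 to 0.33.

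Genes through which serum, cyclic AMP, glucocorticoids and stress reach the clock spanned the widest range of these lists, from -0.42 to 0.58. Of 20 listed 18 were measured, 13 higher (72.2%, against 54.3% of all measured genes) and 5 lower, with a median of 0.11. None was 1.5-fold higher or lower on its brightest set, against 0.75% and 0.182% of all measured genes. DUSP1, a phosphatase gene induced by serum and glucocorticoids, had 670 at 6 h and 448 at 0 h, a difference of 0.58, just under 1.5-fold. Another of its sets was at -0.17. The remaining one, above the floor only at 6 h, gives no more than a bound, a difference of at least 0.588, just past 1.5-fold. EGR1, an immediate early factor, had 543 at 6 h and 380 at 0 h, a difference of 0.52, with 3 sets between 0.16 and 0.67. ATF4, the factor of the integrated stress response, had 7994 at 6 h and 5933 at 0 h on its only set, a difference of 0.43. SIK1, a kinase induced by cyclic AMP that limits resetting, was lower, with 144 at 6 h and 192 at 0 h, a difference of -0.42, and its other set was at -0.13. The glucocorticoid-induced gene FKBP5, named after its values were seen, was at -0.16 on its brightest set, and all 3 of its sets were lower (-0.43 to -0.11). KLF9 and SGK1 of the same list, also named afterwards, were not lower on their brightest sets (0.29 and 0.01). The sets of KLF9 ran from -0.15 to 0.34. FKBP5 therefore does not stand for the glucocorticoid targets as a group. TSC22D3, a further glucocorticoid target, was below the floor on both arrays. FOS, also named afterwards and counted among the higher genes, had 53.7 at 6 h and 37.9 at 0 h. It was above the floor only at 6 h, so its side was fixed.

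At 1.2-fold, a size chosen after the values were seen, 9.9% of all measured genes were higher and 5.29% lower at 6 h. Of the 18 measured acute inputs, 6 were higher (33.3%) and 3 lower (16.7%) at that size, and without _x_at and _s_at probe sets 2 were higher and 1 lower of 12. Of the 11 measured outputs, 3 were higher and 2 lower. Of the 18 measured regulators of clock proteins, 3 were higher and 1 lower, and of the 6 further loop genes none was higher and TEF was lower. Among the 8 clock genes, CLOCK was higher and CRY2 lower. The lists are small and were chosen with earlier results known, so these shares describe these 2 arrays only.

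**Figure D3:**
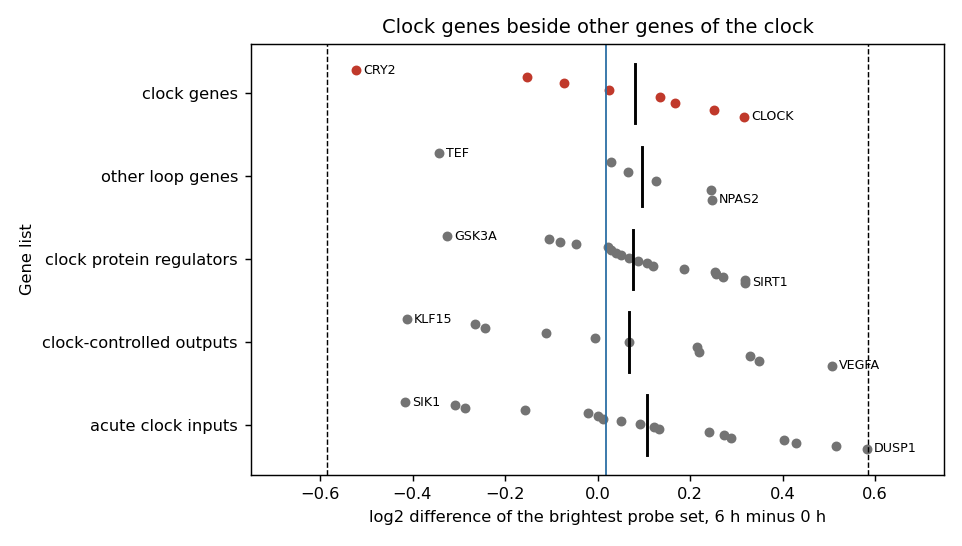
Log2 difference, 6 h minus 0 h, of each measured gene by its brightest probe set, for the clock genes and 4 lists of related genes. Black bars are list medians (0.07 to 0.11), the blue line is the median of all measured genes (0.02), dashed lines mark 1.5-fold and the lowest and highest gene of each list are named. No gene passes the dashed lines and the acute inputs reach furthest, at 0.58 for DUSP1.

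Over the whole array the 6 h values had a median intensity of 44.9 with 49.8% above the floor, and the 0 h values one of 45.8 with 50.2% above it. The labels call the cells type II alveolar cells. Of 12 markers of that cell type 7 were measured. The surfactant genes SFTPB and SFTPC had 133 and 92.3 at 6 h, against 104 and 113 at 0 h, on their brightest sets. The differences of their measured sets ran from -0.39 to 0.35 for SFTPB and from -0.30 to 0.02 for SFTPC. The lipid transporter ABCA3 had 208 at 6 h and 173 at 0 h, and LPCAT1, an enzyme of surfactant lipid synthesis, had 1073 at 6 h and 1314 at 0 h. NKX2-1 and NAPSA were measured near the floor, with the sets of NKX2-1 opposite in sign (-0.18 and 0.28). SFTPD, LAMP3 and SLC34A2 were below the floor on both arrays. ETV5, an ETS factor of these cells that is also a target of ERK signalling, had 381 at 6 h and 202 at 0 h. This difference of 0.92 on its brightest set was the largest such difference in any list used here. The 4 measured sets of ETV5 ran from 0.14 to 0.92. Among 8 general epithelial markers EPCAM, CDH1, KRT19 and CLDN4 were below the floor on both arrays, while KRT18 had 121 at 6 h and 148 at 0 h. Some markers of the labelled cell type were thus measured and others, with most epithelial ones, were not or lay near the floor. Of the fibroblast, leukocyte and endothelial markers 2 of each list were measured. The brightest fibroblast marker, COL1A1, had 179 at 6 h and 230 at 0 h on its brightest set. Its 2 measured sets disagreed, with differences of -0.36 and 0.94, so no direction is given. The brightest leukocyte marker, CD79A, had 118 at 6 h and 136 at 0 h. The endothelial markers reached 56.6 at 6 h and 73.5 at 0 h. Values like those of SFTPB, SFTPC and KRT18 thus do not by themselves show a cell type.

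How far the differences depended on the processing varied between the clock genes. CRY2 lay between -0.58 and -0.47 under the 8 alternatives tried, CRY1 between 0.13 and 0.17 and PER2 between -0.13 and -0.07. DBP lay between -0.21 and -0.05, the latter on the set that gives only a bound. BHLHE40 lay between 0.20 and 0.25 under 7 of them, since both of its sets end in _s_at and the alternative without such sets leaves it none. CLOCK was at 0.12 when its measured probe sets were summarised by their median, and between that value and 0.32 under all alternatives. NR1D2 was at 0.0003 under the same summary, since its sets are opposite in sign. PER3 had the other sign under 4 of the 8 alternatives, down to -0.31.

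**Figure D4:**
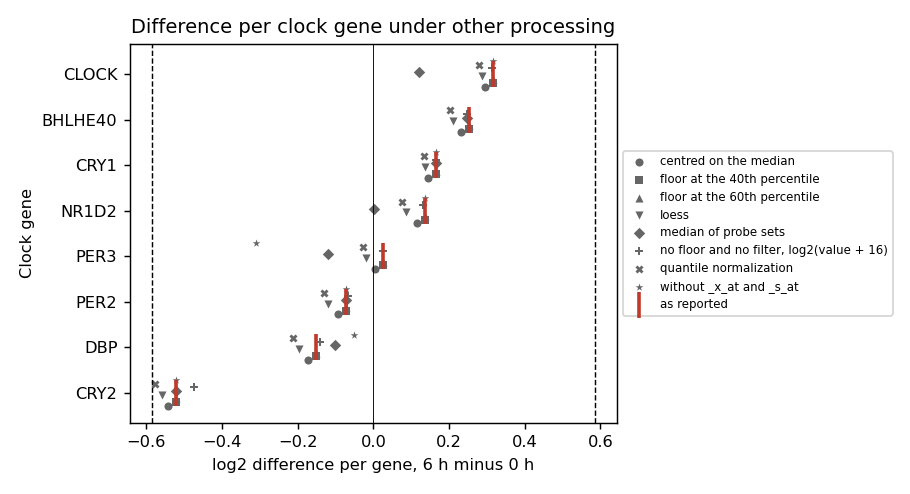
Log2 difference per clock gene, 6 h minus 0 h, as reported (red bars) and under each alternative (grey symbols), with 1.5-fold in each direction as dashed lines. The symbols lie close to the bars for CRY2, PER2, CRY1 and BHLHE40, CLOCK and NR1D2 have 1 symbol well below the bar, and PER3 has symbols on both sides of 0.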

How the data were processed

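RNA of CL1-0 cells was profiled on 1 array at 6 h and 1 at 0 h after an antibody to FSTL1. The deposited table holds 1 linear intensity per probe set and array, summarised by the authors with MAS5, per the submitters' processing notes. Its version, its parameters and any scaling between arrays are not given in the sources used here. Probe sets were named through the platform annotation (41091 with 1 gene, 1801 with several, 11721 with none and 62 controls), and 41037 of those with 1 gene matched RefSeq by Entrez identifier, which gave current symbols.

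Values under the 50th percentile (45.4) were set to it and put on log2, and the difference was 6 h minus 0 h. A gene was represented by its brightest measured probe set. Counts used 1.5-fold. No p-value can be had with 1 array per group, and the number of arrays limits the precision. All members are named, as are the 4 genes of each other clock list with the largest absolute difference. Other genes of these lists are said to be named afterwards or are named as below the floor, and cell type markers were named after their values were seen. The members and lists were chosen with earlier results of these data known. The steps were tested on simulated data, with changes larger than any clock difference here and placed in bright probe sets only. That test does not cover small differences or sets near the floor. Python 3.11.15, pandas 2.3.3 and statsmodels 0.14.6 were used.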

Additional observations from a re-analysis of the deposited data

How the results depend on the processing

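The alternatives moved the floor to the 40th or to the 60th percentile, dropped floor and filter in favour of log2(value + 16), rescaled the arrays (median centring, quantiles, or loess with span 0.3), left out _x_at and _s_at probe sets, or took the median over the sets of a gene. Under these alternatives, counts of clock probe sets and of genes in the 4 other lists past 1.5-fold stayed at 0 in all 78 recomputed counts. The median difference of clock genes lay between -0.05 and 0.08, and was below 0 for the median of probe sets and without _x_at and _s_at sets. In the latter case BHLHE40 has no set left, and the median is the value of DBP on 209783_at, measured only through the 0 h array. With the floor at the 40th percentile 3 clock sets were 1.2-fold lower, against 2 as reported. At 1.2-fold, counts in the other lists also moved: with the median of a gene's sets 1 regulator was higher and 0 lower (3 and 1 as reported), and 1 output was higher (3 as reported). The scatter between probe sets of a gene lay between 0.15 and 0.18. CLOCK was at 0.12 by the median of its sets, and PER3 at -0.31 without _x_at and _s_at sets. No paired analysis was possible because each group holds 1 array, and for the same reason no array could be left out.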
